A study of Mus musculus with 14 samples.

Results

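Haemoglobin genes, the erythroid haem enzyme gene Alas2 and the skeletal muscle genes Ckm and Acta1 were followed across 14 RNA sequencing libraries of mouse cerebellum. The set lists 7 genes, chosen by their measured levels, because these vary greatly between libraries; so the spread between libraries described here is what selected them and is given with no test. Of the 7, Hba-a2, Hbb-bs, Alas2, Ckm and Acta1 (5 genes of 24100 in the count table) were analysed, and Hba-a1 and Hbb-bt were not analysed here. All mice carried the Pcp2-L10a-EGFP bacTRAP transgene, in which the Purkinje cell promoter Pcp2 drives a ribosomal protein L10a joined to EGFP, and were either Astn2 wild type (WT) or Astn2 knockout (KO) at postnatal day 21. Input is 3% of the supernatant of the homogenised cerebellum, and TRAP (translating ribosome affinity purification) is the RNA pulled down from the rest with antibodies to GFP. Input was sequenced in 3 KO libraries, of which 2 were female, and in 4 WT libraries, of which 3 were male. TRAP was sequenced in 4 KO libraries, with 2 of each sex, and in 3 WT libraries, with 1 female. The labels do not say which libraries came from the same animal or whether animals were pooled, so p-values measure the spread between these libraries.

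Haemoglobin is built from alpha chains (Hba-a1 and Hba-a2 in the adult mouse) and beta chains (Hbb-bs and Hbb-bt), each holding haem. Alas2 is the erythroid form of the enzyme that starts haem synthesis, and reticulocytes still carry these messenger RNAs. Ckm, the muscle creatine kinase, buffers ATP in skeletal and heart muscle, and Acta1 is the actin of the skeletal muscle thin filament. Neither blood cells nor skeletal muscle belong to the cerebellar circuit.

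Totals ran from 18.8 to 54.2 M counts (M, 1e6), and 3 counts, the lowest level taken as detectable, equal 0.0444 to 0.204 CPM (counts per 1e6 counts, scaled with TMM factors over all 14 libraries). Such limits cover counting error only. Astn2, the targeted gene, was at 0.739 to 2.1 CPM in the KO libraries and 87.8 to 145 CPM in the WT libraries, as labelled. The Purkinje list was higher in TRAP for 10 of 10 genes in both genotypes and the granule cell list lower for 8 of 8. TRAP WT 3 stood apart from the other TRAP libraries: the distance between the quartiles of its log2 levels, each gene set against the median of the other 6 TRAP libraries, was 0.72, and 0.20 to 0.39 in those 6 libraries.

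The genes lie apart in the genome (RefSeq, GRCm38.p6). Hba-a2 spans chr11:32296492-32297310, Hbb-bs chr7:103826523-103827928, Alas2 chrX:150547417-150570622, Ckm chr7:19411094-19421583 and Acta1 chr8:123891758-123894775. The 250 bases before each start are shown because the blood genes move together over the libraries. The muscle genes also move together, with another library the highest. Capitals in the blood genes mark the GATA motif (written AGATAA or else with a first T, as TGATAA), the CACCC box, the CCAAT box and the TATAA box. In the muscle genes they mark the TATAA box, the E-box (written CANNTG) and the CArG box. Each was searched on both strands, so that a match on the other strand appears as its reverse complement. Sequences run 5′ to 3′ on the strand of the gene.
Hba-a2: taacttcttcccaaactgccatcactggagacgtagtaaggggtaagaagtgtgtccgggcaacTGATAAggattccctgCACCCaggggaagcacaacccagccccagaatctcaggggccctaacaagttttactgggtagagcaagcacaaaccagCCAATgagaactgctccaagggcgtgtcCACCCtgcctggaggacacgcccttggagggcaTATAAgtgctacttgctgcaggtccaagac
Hbb-bs: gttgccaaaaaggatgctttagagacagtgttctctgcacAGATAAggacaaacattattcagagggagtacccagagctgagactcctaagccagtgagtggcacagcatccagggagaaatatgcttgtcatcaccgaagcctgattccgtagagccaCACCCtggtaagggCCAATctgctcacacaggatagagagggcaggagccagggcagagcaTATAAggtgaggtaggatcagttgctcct
Alas2: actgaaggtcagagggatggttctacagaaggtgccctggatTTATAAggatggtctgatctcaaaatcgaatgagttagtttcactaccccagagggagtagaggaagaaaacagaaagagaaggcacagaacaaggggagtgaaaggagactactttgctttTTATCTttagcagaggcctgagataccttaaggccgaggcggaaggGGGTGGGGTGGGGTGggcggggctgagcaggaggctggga
Ckm: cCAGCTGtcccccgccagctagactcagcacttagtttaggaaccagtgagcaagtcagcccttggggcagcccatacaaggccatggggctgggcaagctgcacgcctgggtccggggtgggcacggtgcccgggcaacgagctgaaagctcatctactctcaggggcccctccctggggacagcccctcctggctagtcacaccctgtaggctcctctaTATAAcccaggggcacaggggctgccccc
Acta1: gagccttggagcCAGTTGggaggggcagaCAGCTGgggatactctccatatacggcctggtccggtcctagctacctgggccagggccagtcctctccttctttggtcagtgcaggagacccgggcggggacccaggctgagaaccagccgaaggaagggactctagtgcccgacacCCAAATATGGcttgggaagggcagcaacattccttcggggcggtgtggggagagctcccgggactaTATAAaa

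The GATA motif, the letters read by GATA family factors, was found in all of the Hba-a2, Hbb-bs and Alas2 windows, and 16.6% of 32851 mouse promoter windows of the same length hold it. CACCC, held by 52.0% of windows, was found in all 5 windows, and is not marked in the muscle genes. CCAAT (33.8% of windows) was found in Hba-a2 and Hbb-bs. The CArG box, the motif of serum response factor, was found in Acta1, where it overlaps a CACCC match, and not in the other 4 windows, and 1.47% of all windows hold it. An E-box was found in Ckm, Acta1, Hba-a2 and Hbb-bs, with 66.2% of windows holding one; it is not marked in the blood genes, and in Hba-a2 it overlaps the GATA motif. TATAA was found in all 5 windows, with 22.8% holding it. These matches describe letters in a window and say nothing of what binds there.

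In the input libraries, Hba-a2 was read at 2057, 311 and 272 CPM in KO 1, 2 and 3. In WT 1 to 4 it was read at 1014, 5620.2, 3309 and 1625 CPM. Input WT 2 was the highest and KO 2 and KO 3 the lowest, and KO 1 lay within the range of the WT libraries. Hba-a2 in the TRAP libraries was 559.6, 138, 87.8 and 64.2 CPM in KO 1 to 4 and 282, 1679 and 192 CPM in WT 1 to 3. The group means were 880.0 ± 1019 CPM in input KO (SD, n = 3), 2892 ± 2062 in input WT (SD, n = 4), 212 ± 234 in TRAP KO (SD, n = 4) and 718 ± 834 in TRAP WT (SD, n = 3), so in input KO, TRAP KO and TRAP WT the SD exceeded the mean. From the lowest to the highest library the level differed 20.6-fold in input and 26.2-fold in TRAP.

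Hbb-bs, the beta chain, was read at 1330.2, 193 and 184 CPM in input KO 1 to 3 and at 653, 3645, 2135 and 1081 CPM in input WT 1 to 4. In TRAP it was 306, 82.7, 54.7 and 39.4 CPM in KO 1 to 4 and 162, 1001 and 374 CPM in WT 1 to 3. Its input libraries fell in the same order as those of Hba-a2, from WT 2 and WT 3 through KO 1, WT 4 and WT 1 to KO 2 and KO 3. In TRAP, WT 3 came next after WT 2 for Hbb-bs, but below WT 2, KO 1 and WT 1 for Hba-a2.

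Alas2 followed the globins at a lower level. It was at 54.7, 6.92 and 7.3 CPM in input KO 1 to 3 and at 25.4, 123, 64.9 and 34.0 CPM in input WT 1 to 4. In TRAP it was 9.12, 3.05, 1.81 and 0.616 CPM in KO 1 to 4 and 4.69, 27.9 and 5.32 CPM in WT 1 to 3. Input WT 2 and TRAP WT 2 were again the highest of their fraction. Per kb of transcript, input WT held 5220.1 ± 3721 CPM of Hba-a2, 2992 ± 2122 of Hbb-bs and 30.4 ± 21.7 of Alas2 (SD, n = 4).

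**Figure D1:**
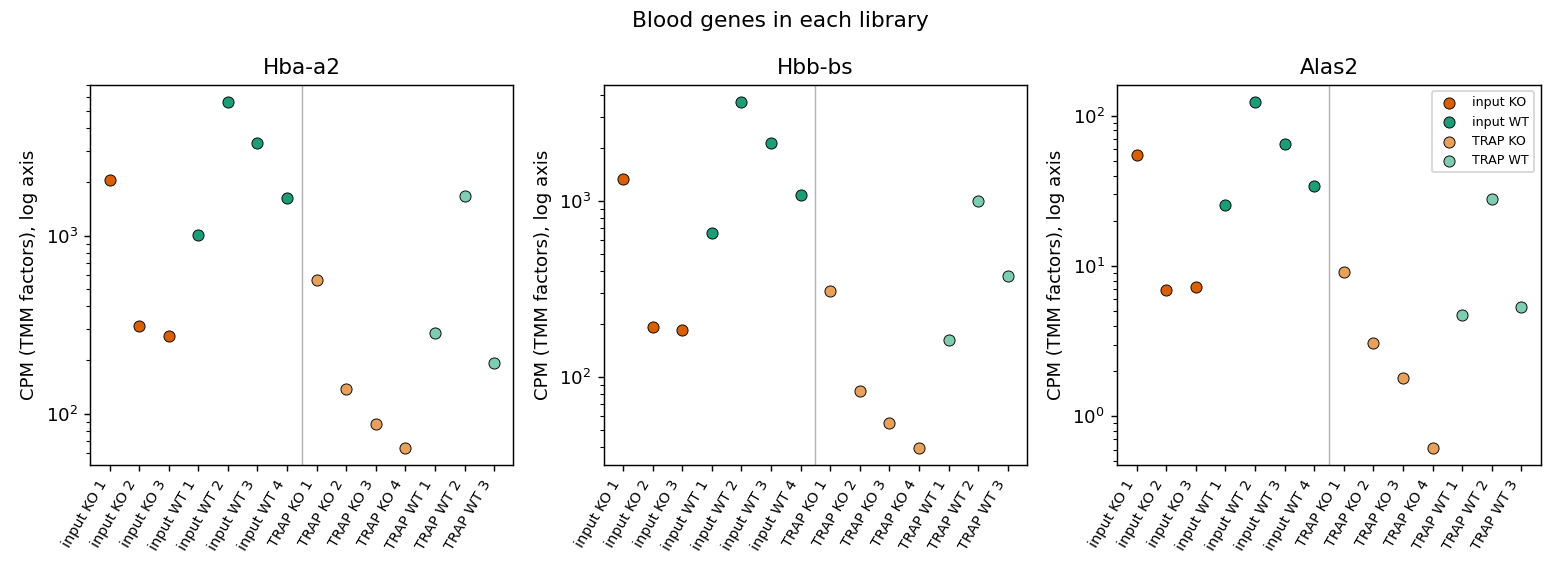
CPM of Hba-a2, Hbb-bs and Alas2 (log axes) in each library, coloured by group, 1 point a library, with input left of the grey line. Input WT 2 and TRAP WT 2 are the highest of their fraction for all 3 genes, and for Hba-a2 they reach 5620.2 and 1679 CPM.

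Hba-a2 and Hba-a1 share 91.0% of the 31-base words of Hba-a2 and have identical upstream windows at a shift of 3 bases (247 of 247 bases compared), and Hbb-bs shares 66.9% of its words with Hbb-bt. The counts given for Hba-a2 and Hbb-bs may therefore include reads of the other copy. Acta1 shares no such word with Actc1 or Acta2, nor Ckm with Ckb. Hbb-b2, another beta globin row, is no member and was picked out after its values were seen; it ran from 35.5 to 937 CPM in input and from 7.7 to 264 CPM in TRAP.

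The ratio of beta to alpha chain counts was nearly constant over 13 of the 14 libraries. Hbb-bs gave 0.621 to 0.677 counts per Hba-a2 count in the 7 input libraries and 0.547 to 0.623 in 6 TRAP libraries. In TRAP WT 3 it gave 1.94, from 9063 Hbb-bs and 4660 Hba-a2 counts. The same library had the lowest count of Hbb-b2 per Hbb-bs, 0.158, with 0.193 to 0.293 in the others, and the highest of Alas2 per 1000 Hba-a2 counts, 27.7. Alas2 per 1000 Hba-a2 counts ran from 19.6 to 26.8 in input and from 9.6 to 27.7 in TRAP, where TRAP KO 4, the lowest, rests on 14 Alas2 counts. TRAP WT 3 is also the library with the wide quartile distance given above; between the 2554 genes of lowest GC content and as large a set of the highest, its median log2 deviation differed by -0.03, and by -0.24 to 0.13 in the other TRAP libraries. The part of either in the ratio was not tested.

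**Figure D2:**
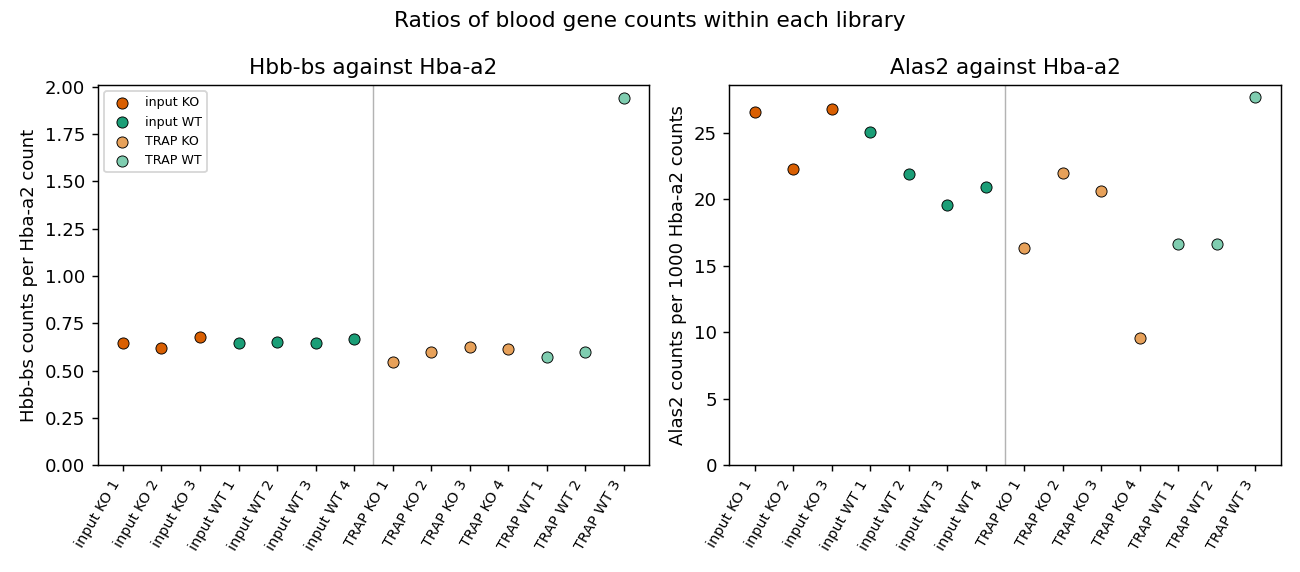
Counts of Hbb-bs per Hba-a2 count and of Alas2 per 1000 Hba-a2 counts in each library, 1 point a library, coloured by group. TRAP WT 3 lies at 1.94 in the first ratio, and the other 13 libraries lie between 0.547 and 0.677.

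The muscle genes were highest in other libraries than the blood genes. Ckm gave 638 counts (13.5 CPM) in input KO 1 and 163 counts (6.35 CPM) in TRAP KO 1. In the other 12 libraries it gave 0 to 5 counts. Acta1 was at 41.9, 2.76 and 3.06 CPM in input KO 1 to 3 and at 3.3, 2.56, 2.97 and 2.58 CPM in input WT 1 to 4. In TRAP, Acta1 was 10.1, 1.44, 0.702 and 0.704 CPM in KO 1 to 4 and 0.748, 0.784 and 0.371 CPM in WT 1 to 3. Both KO 1 libraries stood above all others of their fraction for both genes, 14.6-fold above the median of the other 6 for Acta1 in input and 13.9-fold in TRAP. Without KO 1, Acta1 in input lay between 2.56 and 3.3 CPM in both genotypes. For Hba-a2, input KO 1 lay below input WT 2 and WT 3 only, and TRAP KO 1 lay below TRAP WT 2 only. KO 1 was also the highest KO library of both fractions for Hba-a2, Hbb-bs and Alas2.

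**Figure D3:**
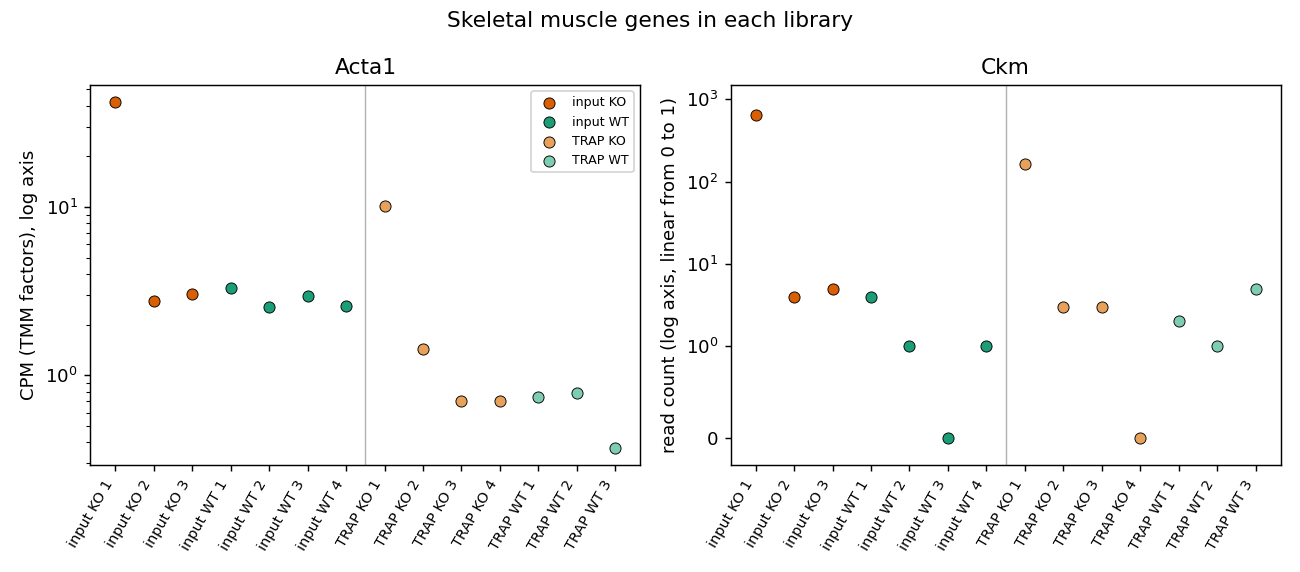
Acta1 (CPM, log axis) and Ckm (read counts, log axis that is linear from 0 to 1) in each library, coloured by group. The KO 1 library is the highest of both fractions, with 638 and 163 Ckm counts against 0 to 5 in the other 12.

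To see which other genes went with the members, genes were counted that were highest in 1 library, with at least 4 times the median of the other 6 libraries of the fraction and at least 10 counts. The genes named from these counts were picked after their values were seen. Input KO 1 led in this way for 38 of 20648 genes (0.184%), and 20 of these are in the lists, among them Ckm, Acta1 and 16 of 29 skeletal muscle genes. They include the fast myosin heavy chains Myh1, Myh2 and Myh4, the troponins Tnnt3, Tnni2 and Tnnc2, the light chain Myl1 and the calcium pump Atp2a1. None of 19 erythroid genes was among them. TRAP KO 1 led for 22 of 19577 genes (0.112%), with Ckm, Acta1 and 9 of 29 muscle genes. In both fractions KO 1 led for 12 genes: Acta1, Ckm, Mb (myoglobin), Myh1, Myh2, Myh4, Myl1, Tnnc2, Tnni2, Tnnt3, Ttn and Hspb7. Tnnt3, for example, was at 16.0 CPM in input KO 1 and 0.182 to 0.326 CPM in the other 6 input libraries.

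Input WT 2 led for 45 of 20648 genes (0.218%). These included Hba-a2, Hbb-bs, Alas2 and 10 of 19 erythroid genes, such as Slc4a1, the anion exchanger of the red cell membrane. Slc4a1 was at 23.5 CPM in input WT 2 and 1.48 to 7.34 CPM in the other input libraries. In the same library, 7 of 9 neutrophil genes, among them S100a8 and S100a9, 2 of 6 platelet genes and 1 of 5 lymphocyte genes met the rule. The summed neutrophil list was 12.5 CPM there and 1.01 to 4.43 CPM in the other input libraries. The lowest of these sums, 1.01 CPM, was in input KO 1, where the 2 globins summed to 3387 CPM, so the neutrophil list did not follow the globins in that library. TRAP WT 2 led for 39 of 19577 genes (0.199%), with Hba-a2, Hbb-bs, Alas2, Slc4a1, Trim10, S100a8 and S100a9 among them. It also led for 4 of 6 choroid plexus genes, and the summed choroid plexus list was 192 CPM there, 202 CPM in TRAP WT 3 and 84.6 to 114 CPM in the other TRAP libraries. Clic6 makes up 81.4 to 133 CPM of that sum in every TRAP library, whereas Ttr (transthyretin) was at 96.5 CPM in TRAP WT 2, 65.8 in TRAP WT 3 and 1.14 to 2.11 CPM in the other 5. In input that sum was 1172 CPM in KO 2, 400.4 in WT 2 and 283 in WT 3 and 10.5 to 15.5 CPM in the other 4, so it did not follow the globins in KO 2. The part of these cells in the levels of the members was not tested. In such bulk samples, fewer cells of a type and less RNA per cell cannot be told apart.

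**Figure D4:**
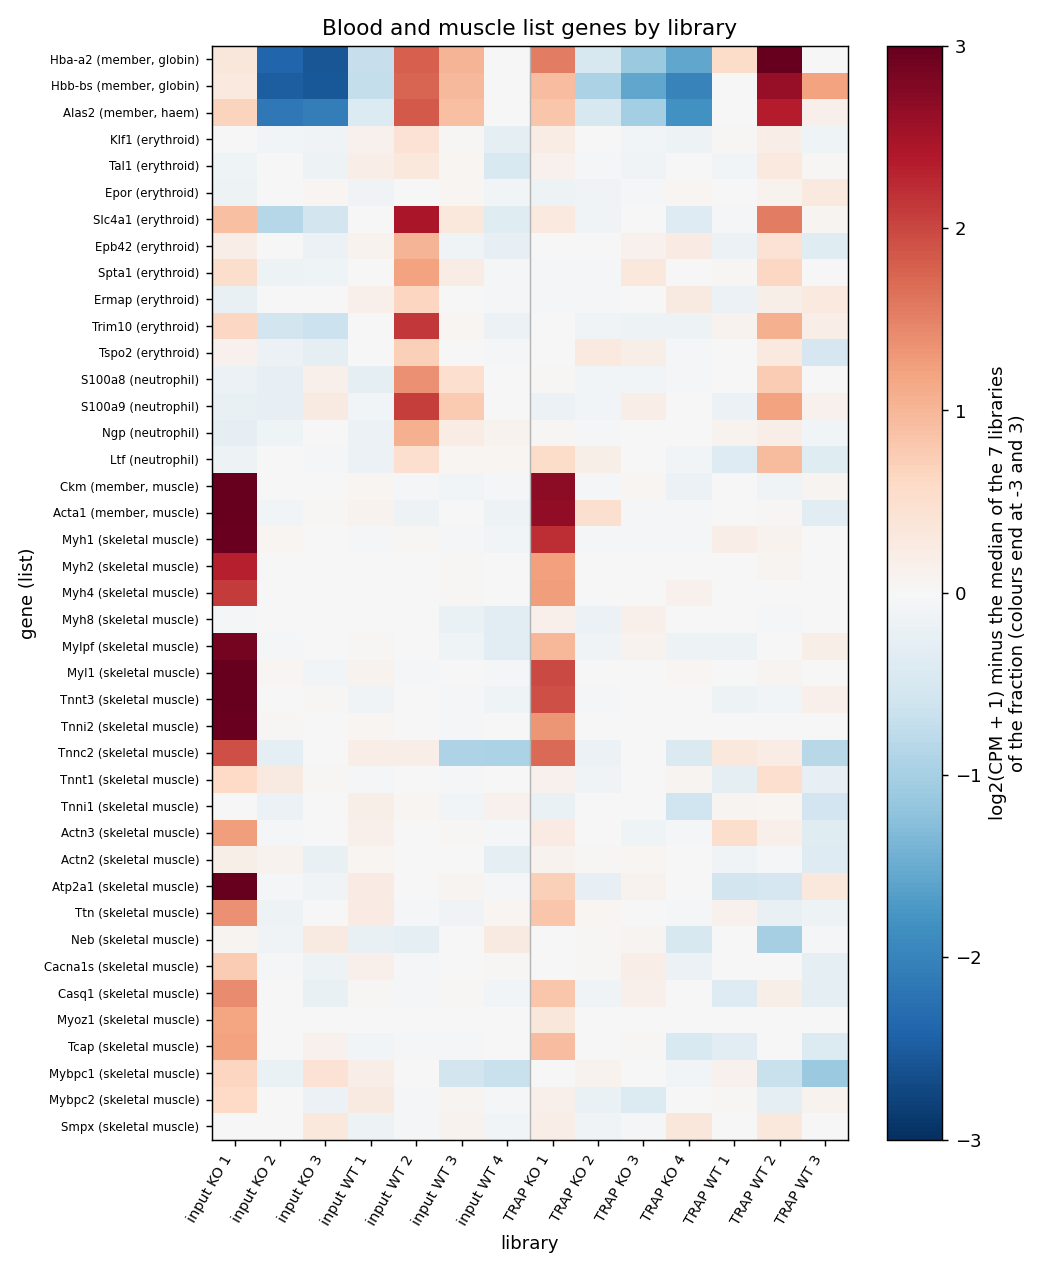
Log2(CPM + 1) minus the median of the 7 libraries of the same fraction, for genes of the blood, neutrophil and muscle lists that reached 1 CPM in any library (rows, with 1 gene left out) in each library (columns); red is higher and blue lower, and colours end at -3 and 3. Ckm, Acta1, Myh1, Myl1 and Tnnt3 are red in both KO 1 columns, while Neb and Tnni1 are near white there; Slc4a1, Trim10 and S100a9 are red in both WT 2 columns, while Epor is near white.

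The genes whose pattern was most like the members were ranked by the lower of the Pearson correlations of log2(CPM + 1) over the 7 input and the 7 TRAP libraries, among 12473 genes; these are descriptions, with no test. For the summed globins the first was Hbb-b2 (0.995 in both fractions), itself a beta globin gene. Whether it shares reads with Hbb-bs was not tested. Next came Bpgm (0.869 in input, 0.975 in TRAP), an enzyme that makes 2,3-bisphosphoglycerate in red cells. Ube2l6 (0.969 and 0.853), Cldn5 and G0s2 followed. The same 5 genes came out for Alas2. Bpgm ran only from 63.3 to 113 CPM in input and from 153 to 238 CPM in TRAP. Unlike the globins, it was thus higher in TRAP, with no overlap. For Ckm the first were Mylpf (0.996 and 0.963), a fast muscle light chain, Tnnc2 (0.877 and 0.858) and Pgam2 (0.999 and 0.835), then Ccdc153 and Pogz. For Acta1 they were Mylpf, Tnnc2, Ddx3x, En1 and Pgam2. All genes share the same libraries, and KO 1 is the highest library for Ckm and Acta1 in both fractions.

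Genotype was compared within each fraction with sex as a covariate, to ask whether loss of Astn2 changes these levels. None of the 4 members tested passed an adjusted p of 0.05 in TRAP (edgeR's quasi-likelihood test, Benjamini-Hochberg over all genes), where 0.00705% of 14182 genes did, nor in input, where 0.0188% of 15969 did. In TRAP, KO against WT gave a log2 fold change of -2.40 ± 1.19 (SE) for Hba-a2, -2.61 ± 1.05 for Hbb-bs and -2.33 ± 1.12 for Alas2, each with an adjusted p of 1 (edgeR). Acta1 gave 1.41 ± 0.88 in TRAP. Without TRAP WT 2 these values went to -0.59, -1.67 and -0.96 for the blood genes. Without TRAP WT 1 they went to -3.60, -3.84 and -3.77, with Acta1 at 0.34. TRAP WT 1 is the only female TRAP WT library. With sex as a covariate, the fit without it sets KO 3 and KO 4 against WT 2 and WT 3. In input the values were -1.82 ± 1.31, -1.79 ± 1.30 and -1.58 ± 1.20 for the same 3 blood genes (edgeR adjusted p from 0.566 to 0.582) and 1.38 ± 1.02 for Acta1 (adjusted p 0.576). At an unadjusted p under 0.05 in the edgeR fit there was 1 member in TRAP, Hbb-bs, beside 214 of 14182 genes. Input had 0, beside 2210 of 15969 genes. The DESeq2 test called 0 members in both, beside 3 genes in TRAP and 294 in input. Ckm did not pass the filter on low counts in any comparison. The KO and WT libraries overlapped for all 5 members in both fractions, while 2.64% of genes in TRAP and 3.65% in input had every KO library below every WT library.

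In input, the direction turned when single libraries were left out. Without input KO 3, the only male input KO library, the input values turned to 0.24 for Hba-a2, 0.23 for Hbb-bs and 0.28 for Alas2. With sex as a covariate, that fit sets KO 1 and KO 2 against WT 1 alone, the only female input WT library. The turn therefore does not measure the part of KO 3 by itself. Without input KO 1, Acta1 in input went to -0.02, which is close to no difference. The biological coefficient of variation was 0.643 to 0.676 for the 4 members in input, with 0.0909 at the median gene. In TRAP it was 0.618 to 0.756 for the members, with 0.224 at the median gene. The members were chosen for their spread between libraries, so this excess follows from that choice and tests nothing. Of the erythroid list 0 of 13 tested passed in input, with a median log2 fold change of -0.86, and of the skeletal muscle list 0 of 17, with a median of 0.43, beside 0.00 over all genes tested. In TRAP only 4 of the 19 erythroid genes with counts were tested, with log2 fold changes from -1.46 to 0.46 and a median of -0.08 (0 of 4 passed). The erythroid medians of the 2 fractions therefore rest on different sets of genes. Other lists of cells in and around vessels lay on the same side as the erythroid list in input. The neutrophil median was -0.90 (0 of 4 passed) and the endothelium median -0.61 (0 of 8 passed). Nearer to no difference were the smooth muscle and mural cell list (-0.22, 0 of 8 passed), the platelet list (-0.12, 0 of 4 passed) and the 1 lymphocyte gene tested (-0.14). In TRAP the endothelium median was -0.16 (0 of 7 passed). Of the endothelium list, 5 of 8 had an unadjusted edgeR p under 0.05, beside 2210 of 15969 genes. The summed endothelium list was 17.3 to 26.5 CPM in input KO and 27.1 to 37.0 CPM in input WT, so the groups only just failed to overlap. Of single genes in input, 3.65% had every KO library below every WT library. The part of the endothelium list in the levels of the members was not tested. The haem synthesis list had a median of -0.04 in input (0 of 11 passed). No member passed a test of a different genotype effect in the fractions (0 of 4 by an interaction term in edgeR, added after seeing the data, and 0 of 15720 genes; 442 genes and no member had an unadjusted p under 0.05).

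TRAP was set against input to ask how far the purification lowers RNA of blood and muscle. In WT, 2 of the 4 members tested were lower in TRAP: Alas2, by -2.32 ± 0.96 on the log2 scale (edgeR adjusted p 0.0409), and Acta1, by -2.51 ± 1.08 (0.0472). Of all genes tested 38.5% were called lower in WT, and the median gene was at -0.06. Hba-a2 (-2.04 ± 1.02, adjusted p 0.0826) and Hbb-bs (-1.88 ± 0.93, adjusted p 0.0799) did not pass. In KO, 3 of 4 were lower, beside 40.0% of all genes: Hbb-bs (-2.19 ± 0.89, adjusted p 0.0382), Alas2 (-2.55 ± 0.96, 0.0256) and Acta1 (-2.04 ± 0.80, 0.0321). Hba-a2 in KO was at -1.99 ± 0.96 (adjusted p 0.0735). These fits take the libraries as unpaired. With a block for libraries of the same replicate number, all 4 members tested were called lower in both genotypes, but the labels do not state that pairing. The granule cell list, cells of the cerebellum outside the Pcp2 line's target, had medians of -2.33 in WT and -2.17 in KO.

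Libraries overlapped between TRAP and input for the blood members in both genotypes. Acta1 in WT was the exception among the 5 members, with 0.371 to 0.784 CPM in TRAP and 2.56 to 3.3 CPM in input; 38.3% of genes had every TRAP library below every input library in WT and 40.6% in KO. In the fits without a block, the calls depended on single libraries. In WT none of the 4 passed without input WT 2, input WT 3, TRAP WT 1 or TRAP WT 3. In KO none passed without input KO 1, TRAP KO 2, TRAP KO 3 or TRAP KO 4. Without TRAP WT 2, the highest TRAP library for the blood genes, Hba-a2 in WT reached -4.22 (adjusted p 0.00416) and all 4 members passed. Without input KO 1, Hbb-bs in KO was at -0.62 and Acta1 at -0.26.

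**Figure D5:**
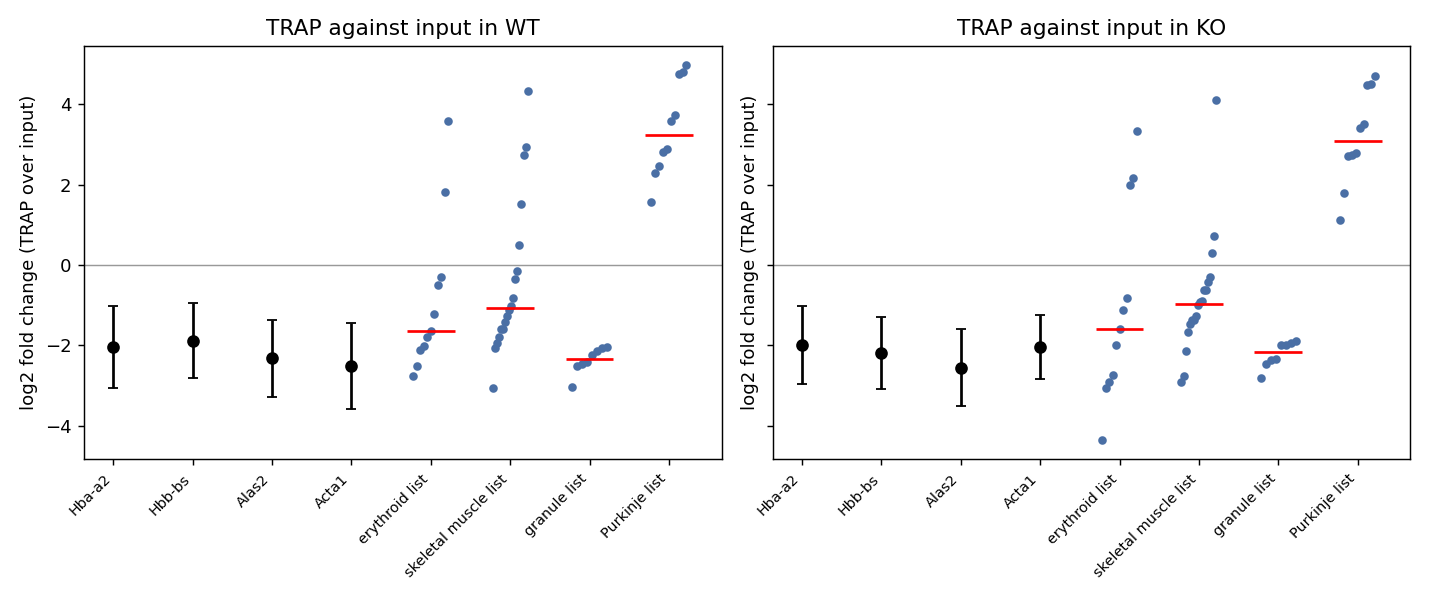
Log2 fold change of TRAP over input in WT and in KO: black points are the 4 members tested, with bars of 1 SE, blue points are genes of 4 lists and red lines their medians. The members lie between -2.55 and -1.88, near the granule list medians of -2.33 and -2.17.

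Other genes named for blood or muscle did not all follow the members in TRAP. Over all genes tested, 38.5% were lower and 37.6% higher in TRAP in WT, and 40.0% lower and 36.7% higher in KO. Of 11 erythroid genes tested, 4 were lower and 2 higher in each genotype, so the share called lower is near that of all genes. In WT, Slc4a1 fell by 2.50 ± 0.94 (adjusted p 0.0264), Epb42 by 2.02 ± 0.83 (0.0392), Tal1 by 1.79 ± 0.60 (0.0145) and Klf1 by 1.21 ± 0.47 (0.0316). The 2 that rose were Epor, the erythropoietin receptor, by 3.57 ± 0.10 (adjusted p 3.35e-11), and Ermap by 1.81 ± 0.23 (6.58e-06). Epor was at 35.2 to 47.8 CPM in the 7 TRAP libraries and 3.25 to 3.94 CPM in the 7 input libraries, with no overlap, and its level did not have the spread of the globins. Of 18 skeletal muscle genes tested, 7 were lower and 3 higher in WT, and 6 lower and 1 higher in KO. Smpx, a small muscle protein gene, rose by 4.33 ± 0.14 in WT (adjusted p 4.24e-11) and by 4.11 ± 0.15 in KO (1.87e-10), with 114 to 154 CPM in TRAP and 6.02 to 8.78 CPM in input. Neb (nebulin) fell by 3.07 ± 0.32 in WT (1.15e-06). Among the energy and actin genes related to Ckm and Acta1, 6 of 9 tested were higher and 2 lower in each genotype: the brain creatine kinase Ckb rose by 1.63 ± 0.25 in WT (4.76e-05) and the cytoplasmic actin Actg1 by 1.83 ± 0.11 (3.93e-09), while the smooth muscle actin Acta2 fell by 1.70 ± 0.57 (0.0145). In the haem synthesis list 7 of 11 were higher and 2 lower in each genotype, with Slc25a38, a mitochondrial glycine carrier, up by 1.79 ± 0.09 in WT (1.77e-09) and Alad down, at -1.13 ± 0.21 (0.000264).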

How the data were processed

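Cerebellar input and TRAP libraries were deposited as raw read counts per gene, with Entrez gene numbers as rows; per the submitters' processing notes, Salmon 0.8.2 and the build mm10 were named, with no role given. The strand setting is not given in the sources used here. Of the 21170 genes with a count, 21132 were matched to symbols in RefSeq's GRCm38.p6 table. The counts deposited by the authors were used as they stand. Groups, sex and numbers came from the labels.

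The members and all gene lists were chosen with earlier results of these data known. Levels are CPM with TMM factors over 14 libraries. Tests were edgeR 4.0.16 quasi-likelihood fits (R 4.3.3; filterByExpr, sex as covariate, Benjamini-Hochberg adjustment, two-sided, threshold 0.05): genotype within each fraction, TRAP against input over all 14 libraries. SE is the absolute log2 fold change over the square root of F. The tests were tried on simulated data. Alternatives were DESeq2 1.42.0 size factors and Wald test, library totals, no filter, a mean count of at least 50, no sex covariate, all 14 libraries in the genotype fits, a replicate block, each library left out, and a pseudocount of 0.1.

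Named genes are the members, list genes past the threshold in the comparison discussed (at most 4 per list and direction) or highest in level (4 per list), the 5 genes most alike in pattern, and Astn2; others are identified as chosen later. Within groups, chi-square per degree of freedom between libraries was 8.63 to 267, above sampling noise for every pair. Promoter windows came from RefSeq, and transcript GC content and shared words from GENCODE M21. Some list genes enter the counts but are not reported here by name.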

Additional observations from a re-analysis of the deposited data

Results flagged for a closer look

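In groups of 4 libraries, 6 of 107 gene and group sets, over 60 genes that are no members, had a highest or lowest library whose gap to the next, divided by the range of the group on the log2(CPM + 1) scale, was above Dixon's 95% critical value for 4 samples. Chance flags about 1 in 20 such sets. The members were not tested in this way, since their spread between libraries chose them. Mb, myoglobin, in TRAP KO 1 had 0.856, with 1.87 CPM there. Trim10, an erythroid gene, in input WT 2 had 0.905, with 7.76 CPM there and 0.79 to 1.08 CPM in the other input WT libraries. The bone gene Sp7 in input WT 2 had 0.966, with levels of 1.15 to 1.37 CPM in that group. In TRAP KO 4, Ermap had 0.857, Neb 0.847 and Pcp2 0.906.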

How the results depend on the processing

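Genotype calls among the members stayed at 0 in both fractions under all 15 alternatives of each. Reversed directions in input came from leaving out input KO replicate 3 (Hba-a2 0.24, Hbb-bs 0.23, Alas2 0.28) or input KO replicate 1 (Acta1 -0.02). Without input KO replicate 3, the only male of its group, the sex covariate sets the KO libraries against input WT replicate 1 alone. Acta1 was at 41.9 CPM in input KO replicate 1 and at 2.56 to 3.3 CPM in the other input libraries. Its value of -0.02 is thus close to no difference, and only its sign was reversed. With each input library left out in turn, the genotype values in input ranged from -3.74 to 0.24 for Hba-a2, -3.68 to 0.23 for Hbb-bs, -3.40 to 0.28 for Alas2 and -0.02 to 2.76 for Acta1. The lowest blood gene values came without input WT replicate 1, where input KO replicate 3 alone is set against the WT libraries. For TRAP against input in WT, the main 2 members called became 4 with library totals, 1 without the sex covariate, 4 without both KO replicate 1 libraries (added after seeing the data) and 0 to 4 with each library left out. In KO, the main 3 became 4 with library totals, 4 with no filter, 2 without both KO replicate 1 libraries (Alas2 lost, edgeR adjusted p 0.0616) and 0 to 4 with each library left out. Library totals moved the median gene of TRAP against input by -0.85 in WT and -0.75 in KO. The labels do not say whether libraries of 1 replicate number are paired. The correlation of deviations between input and TRAP libraries of 1 number ran from -0.0591 to 0.252. Of 6 TRAP libraries, 5 correlated best with the input library of their own number. With the replicate block, all 4 members tested were called lower in TRAP in both genotypes (Hba-a2 in WT had an edgeR adjusted p of 0.000497), and 0 by genotype. Ckm was at or near the limit of 3 counts outside the KO 1 libraries, so no difference could be detected there at this depth.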
